A study of Mus musculus with 15 samples.

Results

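The 10 genes described here, Pdgfra, Dpt, Pi16, Tcf21, Cd248, Scara5, Clec3b, Htra3, Meox1 and Cthrc1, are genes by which fibroblasts of the heart are commonly recognised. They were taken by name, all 10 were found among the 55487 genes counted, and 9 of them had enough reads to be tested. RNA was sequenced from the midline of the left ventricular free wall of male mice aged 225 days. The 7 kidney disease animals carried a Col4a5 mutation, which the labels name a knockdown and the study's design text a knockout, and had renal failure that the labels place at the equivalent of stage 4 to 5 in people. The 8 wild type animals were littermates housed with them, and both groups ate normal chow. The labels name isoflurane in one place and ketamine with xylazine in another as the anaesthetic. Each library is 1 animal, numbered within its group, and the labels name no pairs of animals.

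Cardiac fibroblasts make and turn over the collagen network between the muscle cells of the ventricle, and most of them descend from the epicardium. At rest they share a set of receptors and matrix proteins with fibroblasts of other organs. After injury or pressure load a fraction of them activates, adds matrix genes such as Postn and, in the infarcted mouse heart, Cthrc1. The 10 genes fall into 3 roles. Pdgfra, Cd248 and Scara5 are proteins of the cell surface, Dpt, Pi16, Clec3b, Htra3 and Cthrc1 are wholly or mainly secreted, and Tcf21 and Meox1 are transcription factors. In whole ventricle, a larger number of fibroblasts and more RNA of a gene in each fibroblast cannot be told apart.

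Promoter sequences are shown for 3 of the 10 because they hold the E-box CAGCTG, a motif that basic helix-loop-helix factors such as the member Tcf21 can bind. They come from RefSeq on GRCm38.p6, whose table of promoters held 5 of the 10 genes (Pdgfra, Dpt, Pi16, Tcf21 and Htra3). Each line runs 5′ to 3′ on the strand of the gene from 250 bases before the RefSeq start to 30 bases after it, and the capitals mark CAGCTG. They lie at chr1:164796413-164796692 on the plus strand for Dpt, chr17:29318632-29318911 on the plus strand for Pi16 and chr5:35679751-35680030 on the minus strand for Htra3. The Pi16 window lies wholly within the span of the gene as counted (29317680 to 29330593), downstream of the start of that span.
Dpt: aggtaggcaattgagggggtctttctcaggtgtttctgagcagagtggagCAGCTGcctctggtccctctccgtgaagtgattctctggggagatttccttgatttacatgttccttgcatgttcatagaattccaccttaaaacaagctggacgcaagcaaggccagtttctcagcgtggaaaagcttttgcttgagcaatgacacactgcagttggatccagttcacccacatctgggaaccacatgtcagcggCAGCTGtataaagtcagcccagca
Pi16: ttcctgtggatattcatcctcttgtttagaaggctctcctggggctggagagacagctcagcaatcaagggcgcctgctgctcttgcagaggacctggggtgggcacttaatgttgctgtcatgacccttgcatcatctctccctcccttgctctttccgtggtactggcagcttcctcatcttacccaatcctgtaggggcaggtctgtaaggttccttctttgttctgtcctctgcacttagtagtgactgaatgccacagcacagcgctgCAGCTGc
Htra3: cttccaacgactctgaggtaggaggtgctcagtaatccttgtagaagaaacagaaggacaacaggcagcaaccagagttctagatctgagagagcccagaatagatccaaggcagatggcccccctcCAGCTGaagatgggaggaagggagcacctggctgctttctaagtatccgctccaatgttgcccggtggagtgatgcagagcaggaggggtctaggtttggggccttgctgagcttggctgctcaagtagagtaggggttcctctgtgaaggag
Dpt and Pi16 are among the members that were higher in kidney disease, and Htra3 is a member that was not. CAGCTG, which is its own reverse complement, was present in 16.3% of all 32851 promoters of this table within 250 bases before and 50 after the start. The letters GGAATG (a TEAD motif), TGANTCA (an AP-1 motif) and TAATTA (a homeobox motif), searched on both strands, were in none of the 5 member windows, against 14.7%, 7.81% and 5.29% of all promoters. A match describes the letters only, and none of the 4 motifs overlaps another in these windows.

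The libraries of kidney disease animals held 54263014 to 65519279 counts and those of wild type animals 48748379 to 57962094. Col4a5, the mutated gene and a collagen IV chain of basement membranes, had 13.5 ± 2.97 CPM in kidney disease and 57.0 ± 4.93 CPM in wild type (SD, n = 7 and 8), without overlap, so every library matched its label. Among the 20718 genes tested, 168 were higher and 98 lower in kidney disease at an adjusted p under 0.05. Heart muscle markers were abundant in all libraries, with summed levels of Myh6, Tnnt2, Actn2, Ryr2 and Pln between 40784 and 55478 CPM in kidney disease animals, against 52181 to 63580 CPM in wild type. Kidney disease animal 6 had the lowest of these sums and was also extreme for several members, so the log2 fold changes of Pdgfra, Meox1 and Htra3 and the ratios to Pdgfra are given with and without it. Titin mRNA took the most counts in 5 libraries (kidney disease 4, 5 and 7, wild type 6 and 7) and the mitochondrial mt-Co1 in the other 10.

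Of the 10 fibroblast identity genes, 4 were higher in kidney disease: Dpt, Pi16, Cd248 and Clec3b, by 1.23 to 1.30-fold. Over all genes tested, 0.811% were called higher and 0.473% lower, with a median log2 fold change of 0.0042 and 51.2% positive. An unadjusted p under 0.05, in either direction, was found for 2568 of the 20718 genes tested. No member was called lower by edgeR, DESeq2 or limma. By edgeR, 6 members were higher at an unadjusted p under 0.05 (the 4 called, Meox1 and Tcf21) and 1, Htra3, was lower. The median log2 fold change of the 9 tested members was 0.30, with 7 positive and 2 negative. Meox1, Tcf21, Scara5, Pdgfra and Htra3 did not pass the test, and Cthrc1 was too low to be tested. In none of the 9 tested members were the ranges of the groups fully apart, which was so for 0.565% of all genes tested. The 4 calls lie close to the threshold, and with 1 library left out in turn between 0 and 3 of the 9 genes passed.

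**Figure D1:**
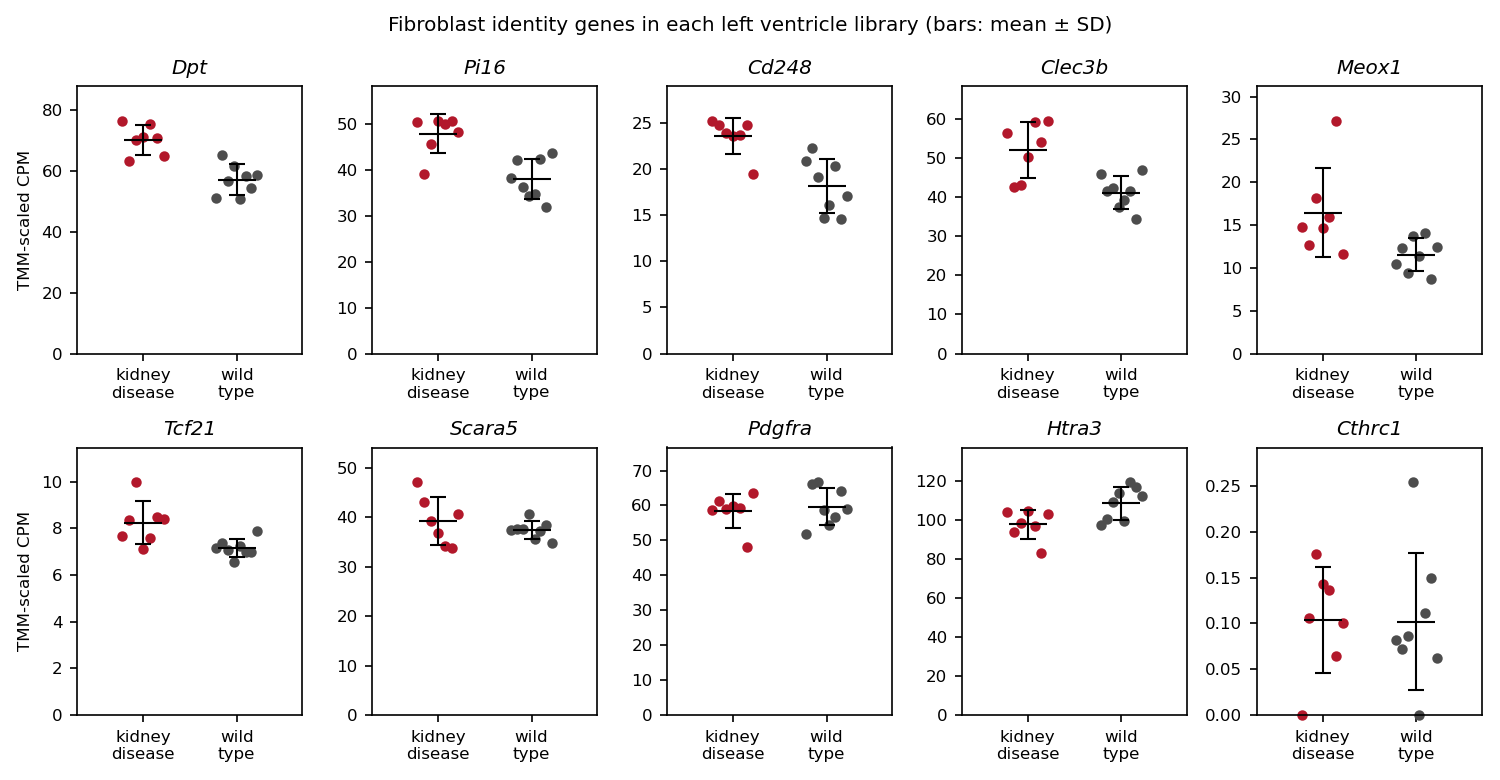
CPM of each of the 10 genes in every library, with kidney disease on the left and wild type on the right of each panel. Points are animals and bars are means with SD (n = 7 and 8). Dpt, Pi16, Cd248 and Clec3b sit higher in kidney disease with overlapping ranges, and Meox1 has 1 kidney disease animal at 27.2 CPM.

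Among the secreted proteins, Dpt (dermatopontin, ENSMUSG00000026574, chromosome 1, 164796644 to 164824266, plus strand, GRCm38) is a small matrix protein that binds decorin and takes part in collagen fibril assembly. Its level was lowest at 63.2, median 70.8 and highest at 76.5 CPM in kidney disease, against 50.9, 57.5 and 65.4 CPM in wild type. All 7 kidney disease animals lay above the wild type mean, 5 of them above every wild type animal, and wild type animal 2 alone reached into the kidney disease range. The log2 fold change was 0.30 with an SE of 0.06 and a 95% interval of 0.17 to 0.43 (edgeR adjusted p = 0.024). Dpt passed the test in 11 of the 15 fits that leave out 1 library, with adjusted p between 0.0139 and 0.0575. It did not pass without kidney disease animal 1, 3 or 5 or wild type animal 5.

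Pi16 (peptidase inhibitor 16, ENSMUSG00000024011, chromosome 17, 29317680 to 29330593, plus strand) is a secreted or membrane-tethered protein of the CAP family and marks fibroblasts of vessel adventitia across mouse organs. It stood at 39.1, 49.98 and 50.6 CPM (lowest, median, highest) in kidney disease and at 31.8, 37.1 and 43.6 CPM in wild type. Kidney disease animal 2 was the only one of its group inside the wild type range, with the other 6 above it. This is a log2 fold change of 0.33 (SE 0.07, 95% interval 0.18 to 0.49, adjusted p = 0.034). Of its 6364 exonic bases, 222 are shared with AC162182.1, a gene on the opposite strand, and reads there cannot be assigned without knowing the strand setting. The call held in 5 of 15 fits with a library left out, those without kidney disease animal 2 or wild type animal 2, 6, 7 or 8, with adjusted p of 0.0172 to 0.0749 over all 15.

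Clec3b (tetranectin, ENSMUSG00000025784, chromosome 9, 123150946 to 123157432, plus strand) is a secreted C-type lectin domain protein that binds plasminogen. Levels ran from 42.4 through a median of 54.1 to 59.4 CPM in kidney disease, against 34.3, 41.5 and 46.9 CPM in wild type. Kidney disease animals 2 and 3 fell among the wild type values and the other 5 lay above them. Clec3b had a log2 fold change of 0.34 (SE 0.08, 95% interval 0.17 to 0.52, adjusted p = 0.048). This was the weakest of the 4 calls. It held in 3 of 15 fits with a library left out, those without kidney disease animal 2 or 3 or wild type animal 8, with adjusted p between 0.0313 and 0.104.

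Htra3 (ENSMUSG00000029096, chromosome 5, 35652023 to 35679782, minus strand) encodes a secreted serine protease that restrains TGF-β signalling. It had 83.3, 98.7 and 105.02 CPM (lowest, median, highest) in kidney disease, against 97.4, 110.9 and 119 CPM in wild type. All 7 kidney disease animals were below the wild type mean and 3 were below every wild type animal. The log2 fold change of -0.15 (SE 0.06, 95% interval -0.28 to -0.02) did not pass the test (adjusted p = 0.307), and it was -0.12 without kidney disease animal 6, which had the lowest level. Its direction was opposite to that of Dpt, Pi16 and Clec3b in the same libraries.

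Cthrc1 (ENSMUSG00000054196, chromosome 15, 39076932 to 39087121, plus strand), a secreted glycoprotein known as a marker of activated fibroblasts in infarcted mouse hearts, was close to undetected. Its reads per library were 0, 6, 10, 10, 9, 4 and 6 in kidney disease, 45 in all. In wild type they were 4, 4, 4, 14, 0, 6, 8 and 3, or 43 in all. The groups overlap fully, at 0.104 ± 0.0580 CPM in kidney disease and 0.102 ± 0.0747 CPM in wild type (SD). Reads this few fell under the filter on low counts, so a difference in Cthrc1 was not detectable at this depth.

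Among the surface proteins, Cd248 (endosialin, ENSMUSG00000056481, chromosome 19, 5068078 to 5070682, plus strand, a gene of 1 exon) is a membrane C-type lectin of fibroblasts and pericytes. It had 19.5, 24.0 and 25.3 CPM (lowest, median, highest) in kidney disease, against 14.6, 18.1 and 22.4 CPM in wild type. Kidney disease animal 7 lay inside the wild type range and the other 6 above it. Cd248 was higher by 0.38 on the log2 scale (SE 0.09, 95% interval 0.19 to 0.57, adjusted p = 0.041). With a library left out the call held in 4 of 15 fits, those without kidney disease animal 7 or wild type animal 1, 2 or 7, and adjusted p ran from 0.0215 to 0.0865.

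Pdgfra (ENSMUSG00000029231, chromosome 5, 75152292 to 75198215, plus strand) is the receptor tyrosine kinase for platelet-derived growth factors (PDGF) by which cardiac fibroblasts are most often traced and sorted. It showed no such shift, with 48.2, 59.3 and 63.7 CPM (lowest, median, highest) in kidney disease and 52.0, 58.8 and 66.6 CPM in wild type. The ranges largely coincide, and 4 of the 7 kidney disease animals were below the wild type mean. The log2 fold change was -0.03 (SE 0.07, adjusted p = 0.921), and its 95% interval of -0.17 to 0.11 bounds the difference. Kidney disease animal 6 was lowest at 48.2 CPM, and without it the log2 fold change was 0.013. Of the 10024 exonic bases of Pdgfra, 652 are shared with Gm42802, Gm42803 and Mir7025, so a small share of its reads is uncertain.

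Scara5 (ENSMUSG00000022032, chromosome 14, 65666403 to 65764826, plus strand), a class A scavenger receptor that takes up ferritin, also did not pass. Its levels were 33.8, 39.3 and 47.1 CPM (lowest, median, highest) in kidney disease and 34.8, 37.5 and 40.7 CPM in wild type. Kidney disease animals spread more, with a coefficient of variation of 12.3% against 4.72% in wild type, and they lay on both sides of the wild type range. The log2 fold change was 0.07 (SE 0.07, 95% interval -0.07 to 0.21, adjusted p = 0.763), and it was 0.019 without kidney disease animal 1, which had the highest level.

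Of the transcription factors, Meox1 (ENSMUSG00000001493, chromosome 11, 101877510 to 101894374, minus strand) is a homeobox factor known to be switched on in activated fibroblasts of the pressure-loaded mouse heart. It had 11.6, 14.7 and 27.2 CPM (lowest, median, highest) in kidney disease, against 8.67, 11.8 and 14.1 CPM in wild type. All 7 kidney disease animals were above the wild type mean and 5 were above every wild type animal, with animal 6 far above the rest. The log2 fold change of 0.51 (SE 0.15, 95% interval 0.19 to 0.82) was the largest of the 9 and did not pass (adjusted p = 0.113). Without kidney disease animal 6 it was 0.34 (adjusted p = 0.199). DESeq2 called Meox1 higher (adjusted p = 0.030), as did edgeR with the mean log2 level of the atrial markers as a covariate (adjusted p = 0.024).

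Tcf21 (ENSMUSG00000045680, chromosome 10, 22817281 to 22820174, minus strand) is the basic helix-loop-helix factor that epicardial cells need to become fibroblasts in the mouse. Its levels were 7.09, 8.36 and 9.96 CPM (lowest, median, highest) in kidney disease and 6.53, 7.10 and 7.89 CPM in wild type. Of the 7 kidney disease animals, 6 were above the wild type mean and 4 above every wild type animal. Its log2 fold change was 0.20 (SE 0.07, 95% interval 0.05 to 0.36, adjusted p = 0.232).

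Relative abundance differed widely among the 10 genes when expressed as FPKM, the deposited CPM per kilobase of exon. These FPKM are not TMM-scaled, so they serve to compare genes within a library and not a gene between the groups. Clec3b was highest at 53.9 ± 8.17 FPKM in kidney disease and 40.5 ± 3.76 FPKM in wild type (SD, n = 7 and 8). Dpt followed at 41.8 ± 3.16 FPKM in kidney disease and 32.5 ± 3.41 in wild type, then Htra3 at 22.6 ± 2.14 and 24.1 ± 2.88. These secreted proteins kept their order in all 15 libraries, and each was above Cd248 in all 15. Cd248 (9.29 ± 0.654 FPKM in kidney disease and 6.82 ± 1.08 in wild type) was above Pi16 (7.69 ± 0.786 and 5.83 ± 0.743) in 13 of the 15.

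Pi16, Scara5, Meox1 and Pdgfra did not separate beyond their spread in wild type, while in kidney disease Pi16 was above Pdgfra in every library. Scara5 had 6.58 ± 0.690 FPKM in kidney disease and 6.02 ± 0.422 in wild type, Meox1 7.52 ± 2.28 and 5.08 ± 0.877, and Pdgfra 5.98 ± 0.607 and 5.84 ± 0.692. Pi16 exceeded Scara5 in 6 of 7 kidney disease and 3 of 8 wild type libraries, and Meox1 exceeded Pdgfra in 5 of 7 and 2 of 8. Tcf21 was below Pdgfra in every library, at 3.58 ± 0.362 FPKM in kidney disease and 2.98 ± 0.222 in wild type. Cthrc1 was lowest in every library, averaging 0.0675 FPKM in kidney disease and 0.0632 in wild type.

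**Figure D2:**
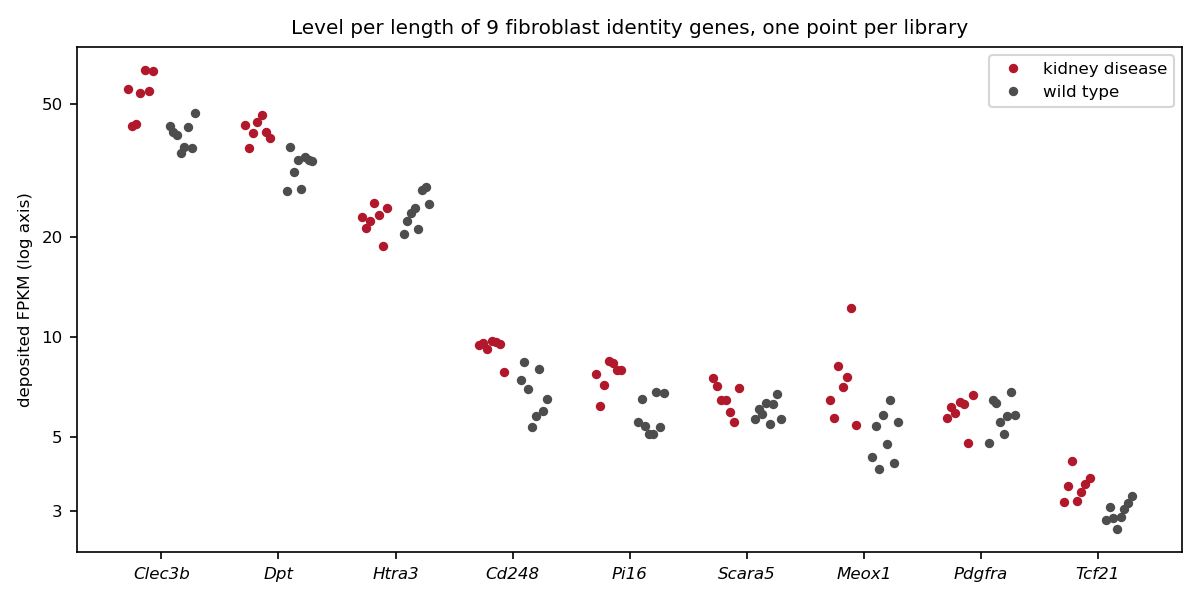
FPKM of the 10 genes except Cthrc1 on a log axis, ordered by mean, with kidney disease left of wild type for each gene. Points are animals (n = 7 and 8). Clec3b, Dpt and Htra3 lead, Pi16, Scara5, Meox1 and Pdgfra overlap near 6 in wild type, and Tcf21 is the lowest gene drawn.

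Levels were also set against Pdgfra in the same library, which removes any scaling between libraries and asks whether the other genes moved relative to this receptor. Per Pdgfra, Dpt had a mean log2 ratio of 0.27 ± 0.19 in kidney disease and -0.06 ± 0.12 in wild type (SD), a difference of 0.33. Pi16 averaged -0.29 ± 0.22 in kidney disease animals, against -0.66 ± 0.22 in wild type, and Cd248 -1.31 ± 0.22, against -1.73 ± 0.27. Clec3b, at -0.18 ± 0.25 in kidney disease and -0.54 ± 0.23 in wild type, differed by 0.36. The group ranges of all 4 ratios overlap, although 6 kidney disease animals had a Pi16 ratio above every wild type animal, 5 a Dpt ratio, and 4 a Cd248 and a Clec3b ratio.

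The ratios of Scara5 and Htra3 to Pdgfra differed by 0.09 and -0.12, or by 0.076 and -0.13 without kidney disease animal 6. Meox1, at -1.88 ± 0.53 in kidney disease and -2.38 ± 0.32 in wild type, differed by 0.50, and Tcf21 by 0.22. Without kidney disease animal 6, which had the highest Meox1 and the lowest Pdgfra, the Meox1 ratio averaged -2.06 ± 0.27 in the 6 other kidney disease animals and the difference was 0.33. That for Tcf21 was then 0.17, and those for Dpt, Pi16, Cd248 and Clec3b were 0.28, 0.30, 0.36 and 0.31. When edgeR was run on all genes with counts scaled to Pdgfra, a setting added after the data were seen, none of the members passed. The log2 fold changes were of similar size (Dpt 0.33, Pi16 0.37, Cd248 0.41, Clec3b 0.37), with adjusted p of 0.106, 0.180, 0.157 and 0.224 and unadjusted p of 0.00089, 0.00255, 0.00193 and 0.00397. A single gene as the scale carries its own counting and animal spread into every other, and under it 34 genes of all were higher and 7 lower.

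**Figure D3:**
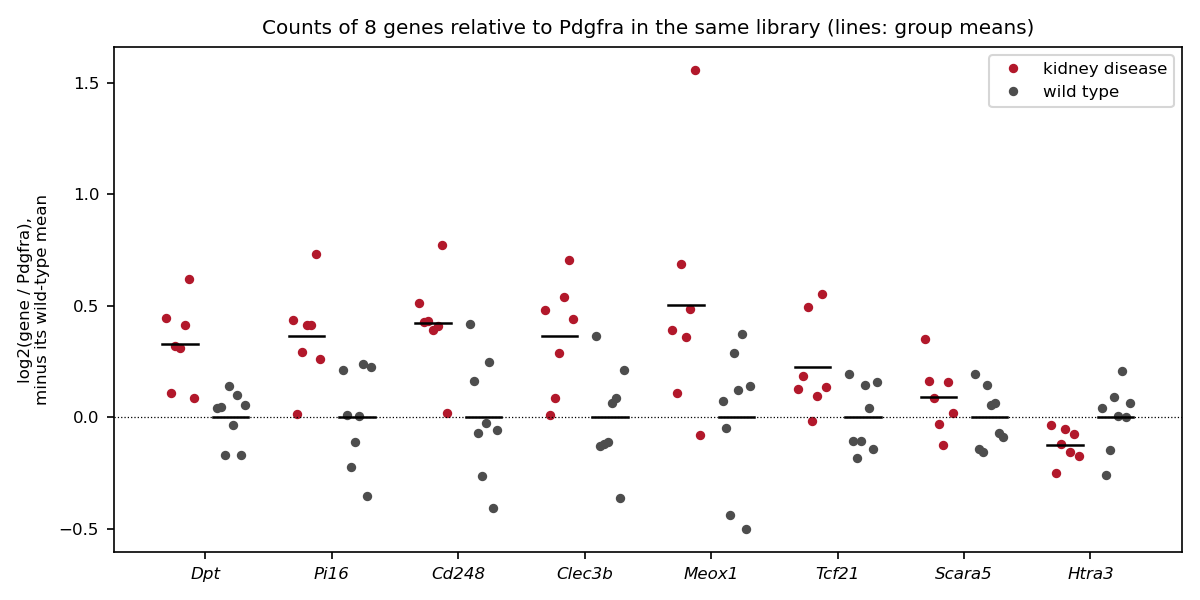
Log2 ratio of counts to those of Pdgfra in the same library, less the wild type mean of each gene. Kidney disease is left of wild type for each gene. Points are animals and lines are group means (n = 7 and 8). Dpt, Pi16, Cd248 and Clec3b have mean ratios 0.33 to 0.42 higher in kidney disease, with overlapping ranges.

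To see whether animals high in 1 of the genes were high in the others, log2 CPM values were compared across the 15 animals after subtracting each group's mean. Of the 45 pairs, none passed after Benjamini-Hochberg adjustment by a within-group permutation test of Pearson's r or of Spearman's rho, and 3 had an unadjusted Pearson p under 0.05. Leaving out Cthrc1, the median r of the 36 pairs was 0.020, with 20 pairs positive. With 15 animals, r has to be large to pass, and a correlation that misses the threshold is not shown to be absent.

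The closest pair was Pi16 with Clec3b (r = 0.74, permutation p = 0.00116, adjusted p = 0.052), with rho = 0.59 (p = 0.0188, adjusted p = 0.453). Without the 2 animals farthest from the median Pi16 level, kidney disease 2 and wild type 7, r was 0.52. This pair passed in 5 of the 15 fits that leave out 1 library. Pdgfra and Meox1 were opposed (r = -0.67, permutation p = 0.0145, adjusted p = 0.325, rho = -0.60), and r was -0.60 without kidney disease 6 and wild type 1. Pdgfra with Htra3 had r = 0.54 (permutation p = 0.047, adjusted p = 0.617, rho = 0.28), which rests on those same 2 animals, since r was -0.03 without them.

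**Figure D4:**
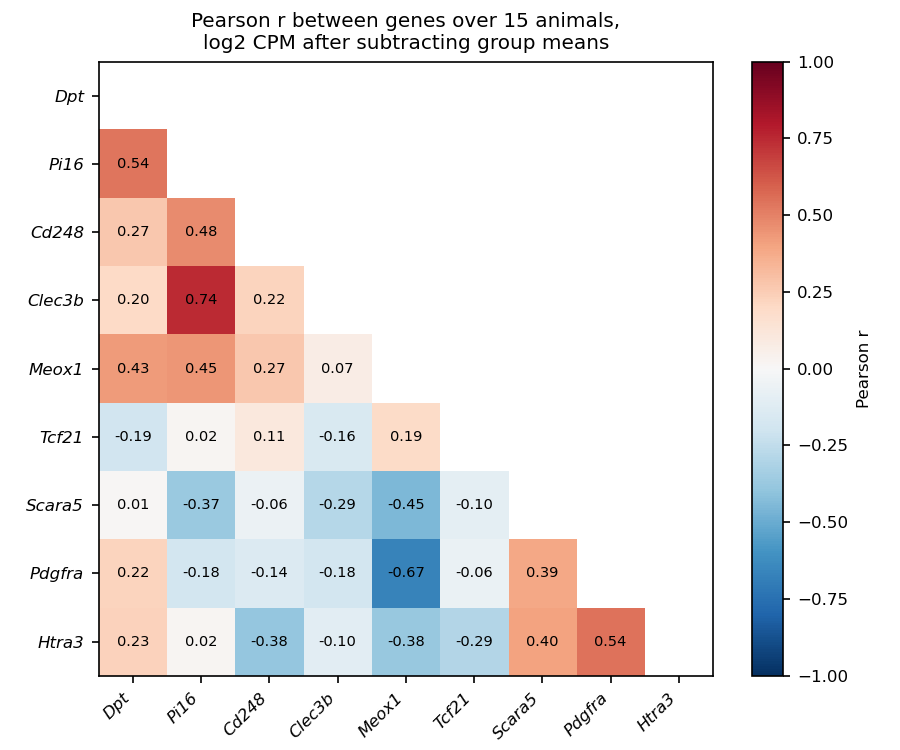
Pearson's r between members across 15 animals after each group's mean was subtracted, for the 36 pairs without Cthrc1. Pi16 with Clec3b at 0.74 and Pdgfra with Meox1 at -0.67 are the extremes, and no pair passed after adjustment over all 45 pairs.

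The protein-coding genes whose residual levels across the 15 animals were most like the mean of the 9 tested members were Tpmt (r = 0.83, rho = 0.90), Edem1 (0.79 and 0.76), Laptm4b (0.78 and 0.82), Zfp558 (0.77 and 0.68) and Hist2h3c2 (0.77 and 0.75). They are the top of 14401 genes searched, so the size of r is a description and no p is given. Without wild type animals 2 and 7 their r was 0.86, 0.75, 0.65, 0.62 and 0.70. None of the 5 was called between the groups by edgeR, with log2 fold changes of -0.03, 0.12, -0.05, -0.33 and 0.23 in the same order.

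In a wider list of 25 fibroblast genes, all tested, 5 were higher in kidney disease, 9 were higher at an unadjusted p under 0.05, and none was called lower by edgeR (1 at an unadjusted p under 0.05). The list's median log2 fold change was 0.13, with 17 of 25 positive. Over all genes tested the median was 0.0042, with 51.2% positive. Of those 20718 genes, 2568 had an unadjusted p under 0.05 in either direction. Vim (vimentin, the intermediate filament of mesenchymal cells) had 287 ± 23.7 CPM in kidney disease and 219 ± 18.6 CPM in wild type (SD), without overlap (log2 fold change 0.39, SE 0.06, adjusted p = 0.0072). Mfap5, a microfibril protein of the same adventitial fibroblasts as Pi16, was higher by 0.51 (SE 0.11, adjusted p = 0.026). The fibrillar collagen Col3a1 was higher by 0.45 (adjusted p = 0.045) and lumican, Lum, by 0.25 (adjusted p = 0.045). The other fibrillar collagens of the list did not pass, Col1a1 at 0.13 (adjusted p = 0.737) and Col1a2 at 0.14 (adjusted p = 0.548). Penk, the 1 gene lower at an unadjusted p under 0.05, was at -0.34 (adjusted p = 0.070). Decorin, Dcn, the proteoglycan that Dpt binds, had 344.0 ± 13.6 CPM in kidney disease and 300.1 ± 12.8 CPM in wild type (log2 fold change 0.20, adjusted p = 0.047), and was named after its value was seen. Col3a1 and Lum each passed in 3 of 15 fits with a library left out, Mfap5 in 11 and Vim in 15.

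Of 19 genes that fibroblasts add when they activate, 1 was called higher and none lower by edgeR, with 7 higher and 0 lower at an unadjusted p under 0.05. That gene was Sfrp2, a secreted Wnt modulator, at 6.93 ± 1.56 CPM in kidney disease and 3.71 ± 0.882 CPM in wild type (log2 fold change 0.90, SE 0.16, adjusted p = 0.0099). Postn (periostin), the usual mark of activated cardiac fibroblasts, had a log2 fold change of 0.51 (SE 0.13, adjusted p = 0.056), and Fn1 of 0.29 (adjusted p = 0.187). The median over the 19 was 0.24, with 16 positive, where 51.2% of all genes tested were positive. Of all 20718 tested, 2568 had an unadjusted p under 0.05 in either direction. DESeq2 called 3 of the 19 higher, and edgeR without kidney disease animal 1 called Postn.

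None of the 6 other PDGF genes was called by edgeR or DESeq2, and 1 was higher at an unadjusted p under 0.05. That ligand, Pdgfb, had 62.9 ± 7.83 CPM in kidney disease and 55.3 ± 4.87 CPM in wild type (log2 fold change 0.19, adjusted p = 0.298). Pdgfa, the main ligand of Pdgfra, differed by 0.02 on the log2 scale, and Pdgfc, another of its ligands, by -0.19 (adjusted p = 0.720). The median over the 6 was 0.01. Among all 20718 genes tested, 2568 had an unadjusted p under 0.05 in either direction.

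Family relatives of the members showed 3 of 19 tested genes higher and none lower by edgeR, and Clec3a and Marco were too low to test. At an unadjusted p under 0.05, 6 were higher and 1 lower, against 2568 of all 20718 genes tested in either direction. Of all genes tested, 0.811% were called higher and 0.473% lower. The 3 relatives called are best known from other cells. Msr1, a macrophage scavenger receptor of the class of Scara5, had 4.18 ± 0.841 CPM in kidney disease and 2.47 ± 0.242 CPM in wild type (log2 fold change 0.76, adjusted p = 0.0064). Csf1r, the macrophage receptor kinase of the family of Pdgfra, had 74.2 ± 6.70 CPM in kidney disease and 56.5 ± 5.39 CPM in wild type (0.39, adjusted p = 0.0086). Clec14a, an endothelial relative of Cd248, had 27.0 ± 2.83 CPM in kidney disease and 20.5 ± 2.31 CPM in wild type (0.40, adjusted p = 0.016). Nearer relatives did not pass: Meox2 at 0.27 (adjusted p = 0.324), Htra1 at -0.09 (adjusted p = 0.619) and the Pi16 relative Crispld2 at -0.19 (adjusted p = 0.208). Other Pi16 relatives were positive and did not pass either: Pi15 at 0.39 (adjusted p = 0.378), Crispld1 at 0.14 (adjusted p = 0.748) and Glipr1 at 0.52 (adjusted p = 0.700).

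Among markers of other cells, those of macrophages and B cells were the sets whose sums did not overlap between the groups. For the counts that follow, 0.811% of all genes tested were called higher and 0.473% lower. An unadjusted p under 0.05, in either direction, was found for 2568 of 20718. Macrophage markers summed to 250.2 to 330.4 CPM in kidney disease animals, against 192.4 to 228.2 CPM in wild type, with 5 of 8 higher. B cell markers gave sums of 13.8 to 20.2 CPM in kidney disease animals, against 6.21 to 12.7 CPM in wild type, with 4 of 5 higher. Markers of the mesothelium, the surface layer of the heart, ran from 15.3 to 55.5 CPM in kidney disease animals, against 13.2 to 56.1 CPM in wild type, with 1 of 7, Wt1, higher (log2 fold change 0.66, adjusted p = 0.023). Atrial muscle markers lay at 31.7 to 1690 CPM in kidney disease animals, against 34.4 to 1401 CPM in wild type, with kidney disease 6 and wild type 5 lowest. Red cell markers lay at 310 to 821 CPM in kidney disease animals, against 558 to 1073 CPM in wild type, with a median log2 fold change of -0.56. None of the 5 was called by edgeR, and all 5 were lower at an unadjusted p under 0.05. Of the 5 heart muscle markers none was called, with 2 lower and 0 higher at an unadjusted p under 0.05. Fat cell markers were low, at 0.211 to 7.11 CPM in kidney disease animals, against 1.57 to 25.2 CPM in wild type, where animals 1 and 2 had 18.5 and 25.2 CPM. The 3 of them tested had a median log2 fold change of -1.34, with none called by edgeR and 1 lower at an unadjusted p under 0.05. Schwann cell markers lay at 6.82 to 13.1 CPM in kidney disease animals, against 7.41 to 13.8 CPM in wild type, with a median of -0.17 over 5 tested. Smooth muscle and pericyte markers had sums of 1190 to 1353 CPM in kidney disease animals, against 1151 to 1237 CPM in wild type. Of these 8 markers none was called by edgeR, with 2 higher and 0 lower at an unadjusted p under 0.05. Endothelial markers lay between 716 and 863 CPM in kidney disease animals, against 663 to 903 CPM in wild type. No marker of these cell types was at 0 in every library, and their part, and that of the heart muscle markers, in the levels of the fibroblast genes was not tested.

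Within the 10 libraries led by mt-Co1, the log2 fold changes of Dpt, Pi16, Cd248 and Clec3b were 0.29, 0.29, 0.43 and 0.22. Within the 5 led by Ttn, 3 of kidney disease and 2 of wild type, they were 0.32, 0.41, 0.35 and 0.57. All were positive and none passed in either set of libraries, which hold fewer animals. For Pdgfra they were -0.06 among mt-Co1 libraries and 0.01 among Ttn libraries, for Htra3 -0.15 and -0.22, for Meox1 0.65 and 0.30, for Tcf21 0.26 and 0.13, and for Scara5 0.13 and -0.03.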

How the data were processed

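Bulk RNA-seq libraries of left ventricle from 7 kidney disease and 8 wild type mice were analysed. Per the labels' protocols, RNA was purified with TRIzol and columns, treated with DNase, kept at an integrity number of at least 8 and made into libraries with KAPA RiboErase, which removes ribosomal RNA. Per the submitters' processing notes, bcl2fastq, STAR 2.7.9a, Subread, featureCounts 2.0.3 and the build GRCm38 were used. Counting options, including whether strand was used, are not given in the sources at hand. For 55487 genes the authors deposited, per library, the raw count beside its CPM and its FPKM. The deposited CPM (the count over its library total) and the deposited FPKM (CPM per kilobase of exon) were recomputed from the counts within a relative tolerance of 1e-06. Symbols and positions came from GENCODE M21.

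The members and gene lists were chosen with earlier results of these data known. Genes passing filterByExpr (minimum count 10), 20718 in all, were tested with edgeR 4.0.16 (R 4.3.3), TMM scaling and the quasi-likelihood F test, group as the only term, with Benjamini-Hochberg adjustment over all genes tested and a threshold of 0.05. Positive log2 fold changes are higher in kidney disease. CPM in the text is TMM-scaled, and errors are SD over animals unless marked SE. The design text calls the libraries biological replicates, and no pair within a group was identical (over 49 pairs, chi-square divided by its degrees of freedom was 8.44 or more). On simulated counts for 20718 genes, 58% of genes raised by 0.5 on the log2 scale, 70% of those lowered by 0.5, 98% of those raised by 1 and 94% of those lowered by 1 were called, with 4.19% of calls false. Covariation used log2 CPM (prior count 2) less the group mean, with 100000 within-group resamples. Counting error alone (the inverse square root of the mean count) gives a coefficient of variation of 5.21% for Tcf21 in wild type, where 5.43% was seen, and of 39.4% and 43.1% for Cthrc1 in kidney disease and wild type. Alternatives were RLE and upper-quartile scaling, mitochondrial genes removed, DESeq2 1.42.0, limma 3.58.1 (voom), no filter and a 1 CPM filter, covariates for the leading gene and for atrial markers (the mean over genes of log2(CPM + 0.5)), a replicate block, each library left out, and, chosen after seeing the data, counts scaled to Pdgfra, the ratios to Pdgfra with each library left out, and each set of libraries by leading gene. Named genes are the 10 members, Col4a5, 4 of each gene list with the smallest p and the 5 genes of most similar residuals. Dcn, Col1a1, Col1a2, Penk, Meox2, Htra1, Pi15, Crispld1, Glipr1 and Wt1 are not covered by this rule and were picked once their values were known.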

Additional observations from a re-analysis of the deposited data

Results flagged for a closer look

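Of 64 groups of 7 or 8 animals examined for the genes named, 6 held an animal whose gap to its nearest neighbour was large for the group's range. Chance gives about 1 in 20 such groups, or 3.2 here. Kidney disease animal 6 accounts for 3 of them: it had the lowest Pdgfra of its group at 48.2 CPM, with the next at 58.7, the highest Meox1 at 27.2 CPM, with the next at 18.2, and the highest Pdgfd, a PDGF ligand, at 17.5 CPM, with the next at 14.5. Without it, the log2 fold change was 0.013 for Pdgfra, 0.34 for Meox1 and -0.040 for Pdgfd.

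Kidney disease animal 2 had the lowest Pi16 of its group at 39.1 CPM, with the next at 45.7. Kidney disease animal 7 had the lowest Cd248 at 19.5 CPM, with the next at 23.6, and the lowest Zfp558 at 0.635 CPM, with the next at 0.798. With animal 2 left out, Pi16 passed the edgeR test, and with animal 7 left out, Cd248 did. Each was the lowest animal of the higher group, so leaving it out widens the difference and is no test of the call. Over the 15 fits that leave out 1 library, the call held in 5 for Pi16 and in 4 for Cd248.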

How the results depend on the processing

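The direction of Dpt, Pi16, Cd248 and Clec3b held under every alternative run, but their calls did not. Members called higher numbered 4 in the main analysis, 3 with RLE or voom, 5 with DESeq2 or the atrial covariate, 1 (Cd248) with a replicate block, and 0 with counts scaled to Pdgfra, in mt-Co1-led libraries and in Ttn-led libraries. Leaving out each library gave 0 to 3. The fit with the replicate block is without wild type animal 8, whose number no kidney disease animal has.

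Over the whole table, 168 genes (0.811% of 20718 tested) were higher and 98 (0.473%) lower; the other settings are given as a percent of the genes each tested, since that number varied. The shares, higher and then lower, were 2.21% and 1.53% with DESeq2, 1.62% and 0.907% with the leading gene as covariate, 1.60% and 0.932% with the atrial covariate, 0.321% and 0.243% with the replicate block, 0.164% and 0.0338% scaled to Pdgfra, 0.242% and 0.174% in mt-Co1-led libraries, and 0.0045% and 0.0089% in Ttn-led libraries. The share called lower was 0.163% with no filter and 1.05% with the 1 CPM filter. With each library left out, 0.325% to 0.958% were higher and 0.146% to 0.939% lower. The other fibroblast markers called higher, 5, became 8 with DESeq2, 8 with the atrial covariate, 2 with the block, 0 scaled to Pdgfra, 2 in mt-Co1-led and 0 in Ttn-led libraries, and 1 to 4 with a library left out. Called lower, 0, became 1 (Penk) with DESeq2 and with either covariate. The activated fibroblast genes called higher, 1, became 3 with DESeq2 and either covariate, 2 with no filter, the 1 CPM filter or the block, 0 in mt-Co1-led and in Ttn-led libraries, and 1 to 2 with a library left out. Relatives called higher, 3, became 1 (Msr1) in mt-Co1-led and 0 in Ttn-led libraries, and stayed at 3 with each library left out. Covarying pairs numbered 0 to 1 with a library left out.

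Signs turned for genes near 0. Leaving out 1 library gave log2 fold changes of -0.055 to 0.013 for Pdgfra (positive without kidney disease replicate 6), -0.040 to 0.063 for Pdgfd (negative without kidney disease replicate 6 or wild type replicate 5), -0.0042 to 0.064 for Pdgfa (negative without kidney disease replicate 2 or wild type replicate 4) and -0.098 to 0.051 for Tpmt (positive without kidney disease replicate 2 or wild type replicate 2). In Ttn-led libraries Pdgfra was 0.0061, Scara5 -0.031 and Pdgfd -0.17. Pdgfa was -0.0099 in mt-Co1-led libraries, and Tpmt was 0.025 scaled to Pdgfra and 0.024 in mt-Co1-led libraries. The cause of these shifts was not tested. The labels name no pairs of animals, and same-numbered animals had correlations of deviations from -0.20 to 0.42, which were not tested.

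Among the 10 members, depth limits Cthrc1, which had too few reads to test, and counting error is close to the whole spread of Tcf21 in wild type. The leading-gene sets hold 3 or more kidney disease animals but as few as 2 wild type animals, so a missed threshold there says little.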
